A study of Arabidopsis thaliana with 47 samples.

Results

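BGLU31 (AT5G24540), BGLU32 (AT5G24550) and BGLU15 (AT2G44450) encode beta-glucosidases of Arabidopsis thaliana. Each was found on the ATH1 array by its symbol and locus, as 1 probe set (249743_at, 249744_at and 267388_at), and the 3 genes stand among 13286 with a named probe set and 22746 probe sets tested. Transcript levels were followed over 47 arrays of Col-0 root protoplasts, which are root cells freed of their walls with digesting enzymes. The 3 genes were chosen by earlier results of these arrays, among them the nitrogen effect on BGLU31 in GR::bZIP1 cells with cycloheximide. That effect, and the levels of the 3 genes across the kinds of cells, are therefore given below as descriptions with no test. Which other values took part in the choice is not recorded, so the p-values of the remaining comparisons may not be independent of it.

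Beta-glucosidases of glycoside hydrolase family 1 release glucose from small molecules to which it is attached. In plants such glucosides include stored forms of hormones, defence compounds, flavonols and the precursors of lignin, and removing the sugar often turns an inactive store into the active molecule. BGLU15 is known as an enzyme that removes glucose from flavonols carrying both glucose and rhamnose. In roots the best known member of the family is PYK10 (BGLU23), an abundant enzyme of the ER body, an endoplasmic reticulum compartment of Brassicaceae cells. BGLU31 and BGLU32 are neighbouring protein-coding genes on chromosome 5 in the RefSeq TAIR10.1 annotation. BGLU15 lies on chromosome 2, where the next protein-coding genes on one side are BGLU28, BGLU29, BGLU17 and PEN2, all of the same family.

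Protoplasts came from seedling roots at 10 days of age after 4 h of digestion, took up plasmid during a transfection of 25 min and were left overnight. One plasmid gave transient overexpression, from the 35S promoter, of the bZIP1 transcription factor joined to part of the glucocorticoid receptor (GR::bZIP1), and the other was the GR vector without bZIP1 (empty vector). Cells were then given nitrogen (N, 20 mM KNO3 with 20 mM NH4NO3) or 20 mM KCl for 2 h. This was followed by cycloheximide (CHX, which blocks protein synthesis) or its solvent, and finally by 10 µM dexamethasone (DEX, which brings the GR fusion into the nucleus) in ethanol or ethanol alone. Transfected cells were sorted by a red fluorescent marker, and their RNA was amplified.

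Among GR::bZIP1 cells with CHX, the treatments N with DEX, N without DEX, KCl with DEX and KCl without DEX had 6 arrays each, 3 treatment replicates from each of 2 preparations named Biorep 1 and Biorep 2. GR::bZIP1 cells without CHX had 3 arrays per treatment. Empty-vector cells, all with CHX, had 3 arrays per treatment except 2 for KCl with DEX. Nothing in the labels says that treatment replicates came from separate cultures, so the errors describe the spread between arrays, which may be technical. In these sorted populations, fewer cells expressing a gene and less RNA per cell cannot be told apart.

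Values are log2 levels as deposited, and the lowest value an array can take, here called the floor, was 2.298 in GR::bZIP1 cells with CHX, 2.303 without CHX and 2.287 in empty-vector cells. Between 34.1% and 36.4% of an array's probe sets lay within 0.01 of it. Because the floors differ, the kinds of cells were evidently summarised in separate runs, and their levels are not on 1 scale. The percentile of a probe set among all probe sets of its array is given beside the level for that reason. The labels name preparations for GR::bZIP1 cells with CHX alone, so vector and CHX cannot be told apart from preparation. Of 9 root cell type markers 2 were matched, the root hair expansin EXPA7 and AT1G62500. AT1G62500 was at the floor on every array and EXPA7 did not exceed 3.06, so the labelled tissue could not be checked with them.

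The plainest feature of BGLU31 and BGLU32 was their level in each kind of cell. Both were well above the floor in empty-vector cells, lower in GR::bZIP1 cells with CHX, and at the floor on 12 of 12 arrays of GR::bZIP1 cells without CHX. BGLU15 was above the floor on all 47 arrays and varied far less between the kinds of cells.

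**Figure D1:**
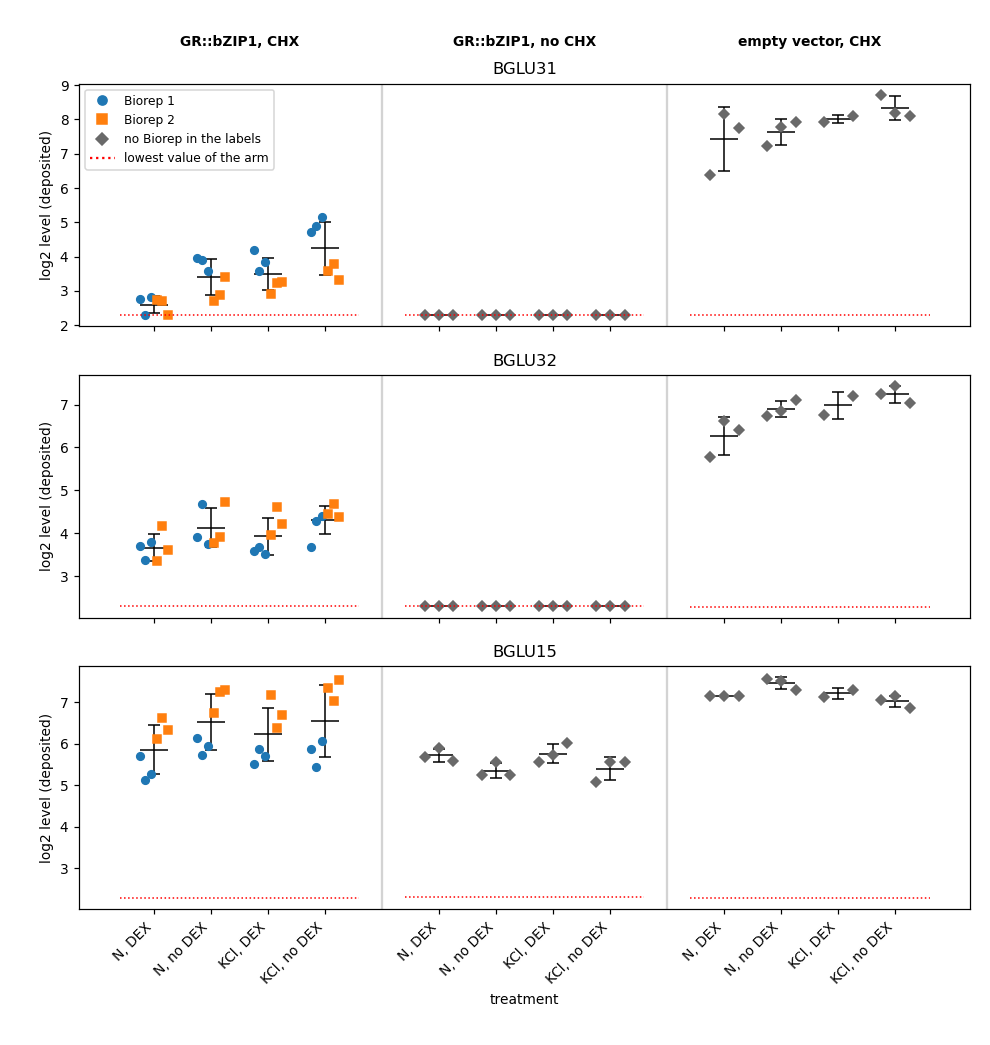
Deposited log2 level (vertical axis) of BGLU31, BGLU32 and BGLU15 on every array, by treatment (horizontal axis) and kind of cell. Points are arrays, coloured by Biorep where the labels give one, bars are the mean ± SD of a group, and the dotted line is the floor. BGLU31 and BGLU32 lie on the floor in GR::bZIP1 cells without CHX and highest in empty-vector cells, while BGLU15 stays above 5 throughout.

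BGLU31 in GR::bZIP1 cells with CHX had a lowest, median and highest value of 2.30, 2.72 and 2.81 with N and DEX, 2.71, 3.50 and 3.97 with N without DEX, 2.90, 3.41 and 4.18 with KCl and DEX, and 3.32, 4.24 and 5.15 with KCl without DEX. Without CHX every GR::bZIP1 array read 2.30. In empty-vector cells the arrays read 6.39, 8.16 and 7.75 with N and DEX, 7.22, 7.78 and 7.94 with N without DEX, 7.94 and 8.11 with KCl and DEX, and 8.72, 8.18 and 8.10 with KCl without DEX. No GR::bZIP1 array reached the lowest empty-vector array. With CHX, 2 of the 6 arrays with N and DEX were at the floor, 1 in each Biorep, and no other array of these cells was. A value at the floor is only an upper bound, so the differences that rest on those arrays may be too small.

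The mean of BGLU31 was 3.44 ± 0.77 in GR::bZIP1 cells with CHX (SD, n = 24) and 7.84 ± 0.61 in empty-vector cells (SD, n = 11). Its median percentile within the array was 53.5 in GR::bZIP1 cells with CHX, 15.3 without CHX, the percentile of the floor itself, and 87.8 in empty-vector cells. The mean in GR::bZIP1 cells with CHX minus that in empty-vector cells was -4.41, and no other of the 22746 probe sets lay as far below, as deposited or after quantile normalization of all 47 arrays together (-4.19). The difference was -4.04 for Biorep 1 and -4.78 for Biorep 2.

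BGLU32 in GR::bZIP1 cells with CHX had a lowest, median and highest value of 3.34, 3.66 and 4.18 with N and DEX, 3.76, 3.91 and 4.74 with N without DEX, 3.52, 3.82 and 4.61 with KCl and DEX, and 3.68, 4.39 and 4.67 with KCl without DEX. Without CHX every array read 2.30. In empty-vector cells the arrays read 5.77, 6.62 and 6.42 with N and DEX, 6.74, 6.86 and 7.11 with N without DEX, 6.76 and 7.21 with KCl and DEX, and 7.24, 7.43 and 7.05 with KCl without DEX. The 3 kinds of cells did not overlap for this gene.

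The mean of BGLU32 was 4.01 ± 0.43 in GR::bZIP1 cells with CHX (SD, n = 24) and 6.84 ± 0.46 in empty-vector cells (SD, n = 11). Its median percentile was 58.1 in GR::bZIP1 cells with CHX, 15.3 without CHX and 80.5 in empty-vector cells. GR::bZIP1 cells with CHX minus empty-vector cells gave -2.83, with -2.97 for Biorep 1 and -2.68 for Biorep 2. Counting BGLU32 itself, 16 probe sets lay at least as far below.

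BGLU15, the flavonol glucosidase, had a lowest, median and highest value of 5.14, 5.91 and 6.61 with N and DEX in GR::bZIP1 cells with CHX, 5.74, 6.45 and 7.30 with N without DEX, 5.51, 6.14 and 7.19 with KCl and DEX, and 5.45, 6.55 and 7.53 with KCl without DEX. Without CHX the GR::bZIP1 arrays read 5.68, 5.90 and 5.58 with N and DEX, 5.26, 5.56 and 5.24 with N without DEX, 5.56, 5.73 and 6.01 with KCl and DEX, and 5.08, 5.56 and 5.56 with KCl without DEX. In empty-vector cells they read 7.15, 7.15 and 7.15 with N and DEX, 7.57, 7.51 and 7.30 with N without DEX, 7.12 and 7.31 with KCl and DEX, and 7.04, 7.15 and 6.87 with KCl without DEX. Arrays of GR::bZIP1 cells with CHX overlapped both other kinds of cells, and the 3 values with N and DEX in empty-vector cells were the same to 4 decimals. The value recurred in 1 array with KCl without DEX of these cells. Of 10392 probe sets over the floor by at least 1 on the 3 arrays, 197 (1.9%) likewise had the same value on all 3.

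The mean of BGLU15 was 6.29 ± 0.71 in GR::bZIP1 cells with CHX (SD, n = 24), 5.56 ± 0.27 without CHX (SD, n = 12) and 7.21 ± 0.20 in empty-vector cells (SD, n = 11). Its median percentile was 75.4 in GR::bZIP1 cells with CHX, 69.8 without CHX and 82.7 in empty-vector cells. GR::bZIP1 cells with CHX minus empty-vector cells gave -0.92, and 1054 probe sets (4.63%) lay at least as far below. For BGLU15 this difference depended on the preparation, at -1.50 for Biorep 1 and -0.34 for Biorep 2.

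Over all probe sets, 23.3% were at the floor on every array of GR::bZIP1 cells without CHX, and 1.78% were so while at the floor on no empty-vector array. BGLU31 and BGLU32 were 2 of these 406 probe sets. In 3.13% of probe sets the percentile in every array of GR::bZIP1 cells with CHX was below that in every empty-vector array, which again held for BGLU31 and BGLU32 and not for BGLU15. In 1.05% of probe sets, BGLU32 among them, every array of GR::bZIP1 cells with CHX lay below every empty-vector array and above every array without CHX. BGLU31 missed this order through 1 array, Biorep 1 replicate 2 with N and DEX, at percentile 15.3. Its other array at the floor was at percentile 33.0, above every array without CHX.

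The DEX effect, the mean with DEX minus the mean without it averaged over N and KCl, asks what followed nuclear entry of GR::bZIP1. In GR::bZIP1 cells with CHX, BGLU31 and BGLU15 fell with DEX, and BGLU32 did not pass the test. For BGLU31 the group means were 2.60 ± 0.24 with N and DEX, 3.41 ± 0.52 with N without DEX, 3.50 ± 0.46 with KCl and DEX and 4.24 ± 0.77 with KCl without DEX (SD, n = 6). The means with N without DEX and with KCl and DEX differed by less than their SD.

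BGLU31 had a DEX effect of -0.77 ± 0.14 (SE, limma, adjusted p = 0.00116), a level with DEX 0.585 times that without. BGLU15 had a DEX effect of -0.49 ± 0.11 (SE, limma, adjusted p = 0.00944), or 0.711 times. BGLU32 had -0.42 ± 0.15 (SE, limma, adjusted p = 0.11), with a 95% interval of -0.73 to -0.12 before adjustment. Of all probe sets 2.97% were called lower with DEX here, against 2 of these 3 genes. The 3 genes each had a lower mean with DEX in 4 of 4 combinations of N and Biorep.

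Within the preparations the DEX effect of BGLU31 was -1.12 in Biorep 1 and -0.42 in Biorep 2, where alone it was not called (limma, adjusted p = 0.384). With N in Biorep 2, BGLU31 averaged 3.00 without DEX and 2.58 with DEX. The floor of 2.298 limits how far it could fall there, so the 2 preparations are not an even comparison. BGLU15 had -0.34 in Biorep 1 and -0.65 in Biorep 2, not called in either alone (limma, adjusted p = 0.472 and 0.164). For BGLU32 the values were -0.51 in Biorep 1 and -0.34 in Biorep 2. With the 3 treatment replicates of a Biorep averaged to 1 value, neither call was made (limma, adjusted p = 0.372 for BGLU31 and 0.21 for BGLU15). BGLU31 also missed the threshold without replicate 2 (-0.71, adjusted p = 0.0543) and BGLU15 without replicate 3 (-0.38, adjusted p = 0.389).

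**Figure D2:**
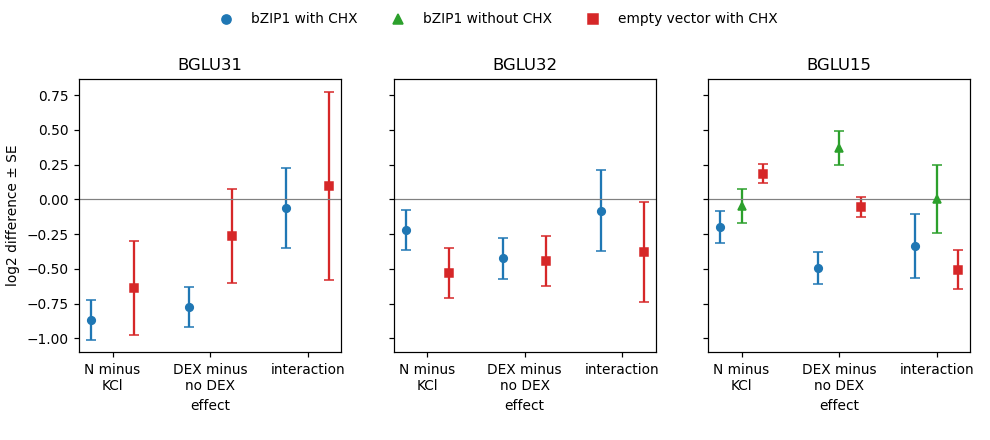
Effects of N and DEX and their interaction (horizontal axis) on each gene, as log2 difference ± SE (vertical axis), for GR::bZIP1 cells with CHX (circles), GR::bZIP1 cells without CHX (triangles, BGLU15 only, because the other genes were at the floor there) and empty-vector cells with CHX (squares). The DEX effect of BGLU15 is -0.49 in GR::bZIP1 cells with CHX and 0.37 without CHX, and BGLU31 has the widest errors in empty-vector cells.

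In empty-vector cells, which hold no bZIP1 fusion, 0 of the 3 genes passed the test for DEX (limma), while 1 had an unadjusted p under 0.05. Of all probe sets 1.05% passed the adjusted threshold and 7.44% the unadjusted one. BGLU31 had -0.26 ± 0.34 (SE, adjusted p = 0.959), BGLU32 -0.44 ± 0.18 (SE, adjusted p = 0.611) and BGLU15 -0.06 ± 0.07 (SE, adjusted p = 0.952) by limma. Without replicate 1 the sign turned for BGLU31 (0.04) and BGLU15 (0.02), neither of them called.

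The difference in DEX effect, GR::bZIP1 cells with CHX minus empty-vector cells, was then tested in 1 fit of all 47 arrays. None of the 3 genes passed (limma, 0 of 3, and 1 with an unadjusted p under 0.05), against 4.53% of all probe sets past the adjusted threshold and 11.7% past the unadjusted one. BGLU31 differed by -0.51 (95% interval -1.06 to 0.04, adjusted p = 0.505), BGLU15 by -0.44 (-0.80 to -0.07, adjusted p = 0.234) and BGLU32 by 0.02 (-0.43 to 0.47, adjusted p = 1). These intervals are not adjusted for the number of probe sets, and a DEX effect particular to GR::bZIP1 cells was thus not shown for any of the genes.

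Only BGLU15 could be measured in GR::bZIP1 cells without CHX, since BGLU31 and BGLU32 had no value above the floor to change. BGLU15 averaged 5.72 ± 0.16 with N and DEX, 5.35 ± 0.18 with N without DEX, 5.77 ± 0.23 with KCl and DEX and 5.40 ± 0.28 with KCl without DEX (SD, n = 3). Its DEX effect of 0.37 ± 0.12 did not pass the test (SE, limma, adjusted p = 0.177, unadjusted p = 0.0156), and 4.29% of all probe sets did.

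The DEX effect on BGLU15 differed between GR::bZIP1 cells with and without CHX. The difference, with CHX minus without CHX, was -0.86 ± 0.17 (SE, limma in 1 fit of all 47 arrays, adjusted p = 0.00105), and 1.61% of all probe sets were called lower in it. The means with DEX were below those without DEX in both N and KCl with CHX (-0.66 in N, -0.33 in KCl) and above them in both without CHX (0.37 in N, 0.37 in KCl). The call was lost without replicate 3 (-0.74, adjusted p = 0.164) and with no Biorep covariate (adjusted p = 0.401).

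The N effect, N minus KCl averaged over DEX, was the known result for BGLU31 and has no test in GR::bZIP1 cells with CHX. It was -0.86 ± 0.14 (SE) for BGLU31, or 0.549 times the KCl level, -0.22 ± 0.15 for BGLU32 and -0.20 ± 0.11 for BGLU15. BGLU31 was lower with N in 4 of 4 combinations of DEX and Biorep, BGLU32 and BGLU15 in 3 of 4. By preparation, BGLU31 had -1.17 in Biorep 1 and -0.56 in Biorep 2, BGLU32 had 0.01 in Biorep 1 and -0.45 in Biorep 2, and BGLU15 had -0.09 in Biorep 1 and -0.31 in Biorep 2. For BGLU31 the lower level in Biorep 2 lies closer to the floor, which limits how far it could fall with N.

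In empty-vector cells 0 of the 3 genes passed the test for N (limma), while 2 had an unadjusted p under 0.05. Of all probe sets 0.163% passed the adjusted threshold and 7.71% the unadjusted one. BGLU31 had -0.64 ± 0.34 (SE, adjusted p = 0.774), BGLU32 -0.53 ± 0.18 (SE, adjusted p = 0.48) and BGLU15 0.19 ± 0.07 (SE, adjusted p = 0.561) by limma. For BGLU31 the ascending order of the 4 means was the same as in GR::bZIP1 cells with CHX, at 7.43 with N and DEX, 7.64 with N without DEX, 8.02 with KCl and DEX and 8.33 with KCl without DEX, but neighbours in it overlapped or touched. For BGLU15 the N effect in GR::bZIP1 cells without CHX was -0.05 ± 0.12 (SE, limma, adjusted p = 1), and with CHX minus without CHX it differed by -0.15 ± 0.17 (SE, limma, adjusted p = 0.984).

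The N effect in GR::bZIP1 cells with CHX minus that in empty-vector cells was -0.23 (95% interval -0.78 to 0.32) for BGLU31, 0.31 (-0.14 to 0.75) for BGLU32 and -0.38 (-0.74 to -0.02) for BGLU15. None of the 3 passed (limma, adjusted p = 1 for each, 1 with an unadjusted p under 0.05), against 0.0747% of all probe sets past the adjusted threshold and 4.55% past the unadjusted one. The N effect in GR::bZIP1 cells contains the values known when BGLU31 was chosen, so this difference is not independent of that choice.

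The interaction asks whether the DEX effect with N differs from that with KCl. In GR::bZIP1 cells with CHX it was -0.06 ± 0.29 for BGLU31, -0.08 ± 0.29 for BGLU32 and -0.33 ± 0.23 for BGLU15 (SE, limma, adjusted p = 1 for each), and 0 of the 22746 probe sets passed, with 554 (2.44%) at an unadjusted p under 0.05. BGLU31 was at or near the floor with N and DEX, which limits how low its interaction could be. BGLU15 in empty-vector cells had an interaction of -0.50 ± 0.14 (SE, limma, adjusted p = 1, unadjusted p = 0.00836), where 0.0352% of all probe sets passed. There its means were 7.15 with N and DEX, 7.46 with N without DEX, 7.22 with KCl and DEX and 7.02 with KCl without DEX.

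The 2 preparations of GR::bZIP1 cells with CHX differed for 2 of the 3 genes, in opposite directions. Of all probe sets 14.0% were called lower and 11.2% higher in Biorep 1. BGLU15 averaged 5.71 ± 0.31 in Biorep 1 and 6.87 ± 0.46 in Biorep 2 (SD, n = 12 each), a difference of -1.17 ± 0.11 (SE, limma, adjusted p = 1.26e-07). BGLU31 averaged 3.81 ± 0.88 in Biorep 1 and 3.07 ± 0.43 in Biorep 2, a difference of 0.74 ± 0.14 (SE, limma, adjusted p = 0.000504). BGLU32 averaged 3.87 ± 0.39 in Biorep 1 and 4.15 ± 0.44 in Biorep 2 (-0.29 ± 0.15 SE, limma, adjusted p = 0.179). For BGLU15 this difference exceeded its N and DEX effects in the same cells.

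**Figure D3:**
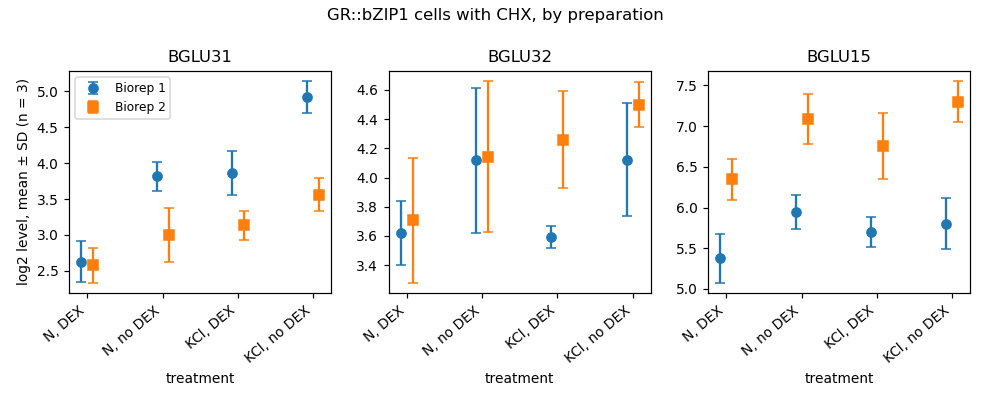
Mean log2 level ± SD (vertical axis, a scale of its own for each gene) of 3 arrays per treatment (horizontal axis) in Biorep 1 (circles) and Biorep 2 (squares) of GR::bZIP1 cells with CHX. BGLU15 is lower in Biorep 1 at every treatment. BGLU31 is higher in Biorep 1 except at N with DEX, where the means almost coincide close to the floor.

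The other genes of the family were read beside the 3. Of 48 listed genes of glycoside hydrolase family 1, 22 had a probe set of their own with a name, 19 of them besides BGLU31, BGLU32 and BGLU15. BGLU46, which acts on monolignol glucosides in lignification, had means of 12.49 in GR::bZIP1 cells with CHX, 10.30 without CHX and 13.14 in empty-vector cells. BGLU25 had means of 8.85 in GR::bZIP1 cells with CHX, 8.79 without CHX and 7.98 in empty-vector cells. At the floor on every array were 3 of the 19 in GR::bZIP1 cells with CHX, 3 without CHX and 7 in empty-vector cells. Of all probe sets 23.3% were so without CHX, and this share was not taken in the other cells. The counts cover 24, 12 and 11 arrays and turn on single arrays. BGLU36, BGLU43 and BGLU44 were each at the floor on 23 of 24, 11 of 12 and 11 of 11 arrays. The counts are thus no comparison of the kinds of cells.

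In the difference between GR::bZIP1 cells with CHX and empty-vector cells, the median of the 19 genes was 0.01, as for all probe sets (0.01). The floors of these cells are about as far apart (2.298 and 2.287), and many of the 19 genes lie at or near them. These medians therefore do not show how genes above the floor differ. One gene, BGLU27, was more than 1 lower in GR::bZIP1 cells, at 9.08 against 10.72 in empty-vector cells. PYK10 was more than 1 higher, at 9.16 against 7.51, and it reached 10.26 in GR::bZIP1 cells without CHX. Its median percentile was 94.1 in GR::bZIP1 cells with CHX, 98.3 without CHX and 84.7 in empty-vector cells, the opposite order of BGLU31 and BGLU32.

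Among the other 19 family genes, of those above the floor on every array, the order of BGLU31 and BGLU32 over the 3 kinds of cells was shared by BGLU27, BGLU45 and BGLU46, in means and in median percentiles. BGLU27 had a mean of 9.08 in GR::bZIP1 cells with CHX, 4.17 without CHX and 10.72 in empty-vector cells, at median percentiles of 93.2 with CHX, 59.3 without CHX and 97.0 in empty-vector cells. BGLU45 had a mean of 6.21 in GR::bZIP1 cells with CHX, 3.66 without CHX and 6.71 in empty-vector cells. This order over the kinds of cells was thus not particular to the 2 genes.

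**Figure D4:**
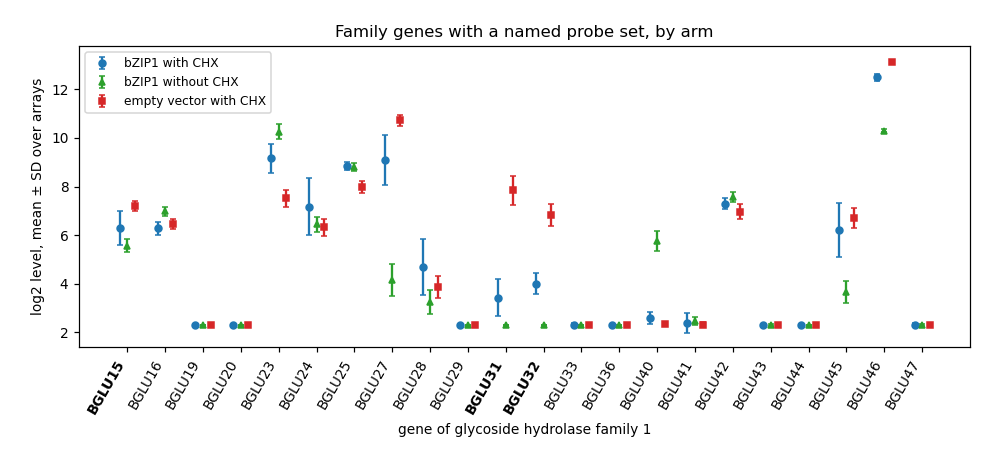
Mean log2 level ± SD over arrays (vertical axis) of the 22 family genes with a named probe set (horizontal axis, BGLU23 is PYK10, and BGLU15, BGLU31 and BGLU32 are in bold) in GR::bZIP1 cells with CHX (circles), without CHX (triangles) and in empty-vector cells with CHX (squares). Levels of the 3 kinds of cells are not on 1 scale. BGLU31 and BGLU32 have the widest gap between GR::bZIP1 cells with CHX and empty-vector cells among these genes, at -4.41 and -2.83.

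The DEX effect was also read in the other family genes. With CHX, 1 of the 19 rose in GR::bZIP1 cells and 0 fell (3 at an unadjusted p under 0.05), against 3.19% of all probe sets that rose. The one that rose was BGLU45, a monolignol glucosidase, by 1.31 ± 0.23 (SE, limma, adjusted p = 0.000697), the direction opposite to BGLU31 and BGLU15. BGLU45 also differed from empty-vector cells in its DEX effect, by 1.49 (limma, adjusted p = 0.0134), against 4.53% of all probe sets called in either direction. From GR::bZIP1 cells without CHX it differed by 1.61 (limma, adjusted p = 0.00488), a difference called higher for 2.85% of all probe sets. In that difference BGLU25 was called lower, as BGLU15 was, by -0.39 ± 0.11 (SE, limma, adjusted p = 0.0365), against 1.61% of all probe sets. Alternatives are given below for the 3 genes alone, so how far the calls of other family genes depend on the processing is not shown.

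Without CHX, 2 of the 19 fell with DEX in GR::bZIP1 cells and 0 rose, against 2.45% of all probe sets that fell. They were BGLU24, at -0.43 ± 0.08 (SE, limma, adjusted p = 0.0168), and BGLU27, at -0.95 ± 0.22 (SE, limma, adjusted p = 0.0488). In empty-vector cells 0 of the 19 passed the test for DEX (limma, 2 at an unadjusted p under 0.05). Of all probe sets 1.05% passed the adjusted threshold there and 7.44% the unadjusted one. For N, 0 of the 19 passed in any kind of cell (limma, with 1, 2 and 1 at an unadjusted p under 0.05 in GR::bZIP1 cells with CHX, without CHX and in empty-vector cells), against 2.02%, 0.0879% and 0.163% of all probe sets. Between the preparations 5 of the 19 were higher in Biorep 1 and 1 was lower, against 11.2% and 14.0% of all probe sets. The higher ones included BGLU24 (2.23 ± 0.11 SE, limma, adjusted p = 1.25e-11), BGLU27 (1.78 ± 0.15 SE, limma, adjusted p = 2.14e-08) and BGLU45 (1.38 ± 0.23 SE, limma, adjusted p = 0.000107), and the lower one was PYK10 (-1.07 ± 0.11 SE, limma, adjusted p = 1.18e-07).

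Further lists were read beside these genes. Of 11 listed ER body genes 6 were matched. With DEX in GR::bZIP1 cells with CHX, 1 of the 6 rose, NAI2, an ER body protein (0.70 ± 0.10 SE, limma, adjusted p = 7.55e-05), against 3.19% of all probe sets. Without CHX 1 fell, the jacalin-related lectin JAL33 (-0.57 ± 0.11 SE, limma, adjusted p = 0.023), against 2.45% of all probe sets. Between the preparations 4 of the 6 were lower in Biorep 1, as BGLU15 was, against 14.0% of all probe sets, among them NAI1, the regulator of ER body formation (-1.46 ± 0.13 SE, limma, adjusted p = 3.92e-08), and JAL33 (-1.73 ± 0.13 SE, limma, adjusted p = 2.91e-09). Their part in the BGLU15 difference was not tested.

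Of 15 listed genes of flavonol synthesis and glycosylation 5 were matched, DFR and the glycosylation genes UGT78D1, UGT78D2, UGT78D3 and UGT89C1. For N or DEX 0 of the 5 passed in any kind of cell (limma, 0 also at an unadjusted p under 0.05). Of all probe sets 2.02% passed for N in GR::bZIP1 cells with CHX, 0.0879% without CHX and 0.163% in empty-vector cells. For DEX 3.19% rose and 2.97% fell in GR::bZIP1 cells with CHX, while 4.29% passed without CHX and 1.05% in empty-vector cells. Among these 5, DFR, an enzyme of the anthocyanin branch, was at the floor on all 47 arrays. UGT78D1 was there on 19 of 24 arrays of GR::bZIP1 cells with CHX, 10 of 12 without CHX and 10 of 11 empty-vector arrays. UGT78D3 stayed near it, with means of 2.45, 2.32 and 2.64 in these cells. The count thus rests mainly on UGT78D2 and UGT89C1, and flavonol synthesis itself was not covered. Of 16 listed nitrate response genes 1 was matched, AT1G25550. It rose with N by 0.20 ± 0.03 in GR::bZIP1 cells with CHX (SE, limma, adjusted p = 0.00143), where 2.02% of all probe sets passed. In empty-vector cells it rose by 0.27 ± 0.03 (SE, limma, adjusted p = 0.0485), where 0.163% passed. Its N effect in GR::bZIP1 cells without CHX was 0.17 and was not called. None of the 6 listed glucosinolate breakdown genes or of the 4 listed shoot markers was matched.

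The likeness of patterns was measured as Pearson's r over the 12 group means, each centred on the mean of its kind of cell, for 5904 named probe sets at least 1 above the floor on average. These values are descriptions: the 12 means share arrays, preparations and normalization, and for BGLU31 and BGLU32 the 4 means without CHX are constant. Between the genes themselves r was 0.829 for BGLU31 with BGLU32 (Spearman's rho 0.659), 0.44 for BGLU31 with BGLU15 (rho 0.146) and 0.367 for BGLU32 with BGLU15 (rho 0.416). The neighbouring genes of chromosome 5 were thus more alike than either was to BGLU15. Their probe sets are separate, and whether transcripts of one gene reach the other's probes was not tested.

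Other genes had patterns closer still. For BGLU31 they were AT5G24070 (r = 0.981), AT1G29680 (0.975), AT3G50940 (0.967), AT4G22720 (0.965) and AT3G08750 (0.965). For BGLU32 they were AT4G19220 (0.983), AT1G72810 (0.973), AT1G19190 (0.972), AT3G49710 (0.966) and AT4G31020 (0.961). For BGLU15 they were AT3G24480 (0.892), AT4G30600 (0.888), AT3G05280 (0.886), AT5G17250 (0.883) and AT2G27080 (0.872), so its closest partners were less close than those of the other genes. All 5 genes named for BGLU31 also had its level order, for example AT3G50940 with a mean of 7.41 in GR::bZIP1 cells with CHX, 2.31 without CHX and 9.22 in empty-vector cells. BGLU31 was constant without CHX, which favours genes at the floor there, so this order follows in part from how they were picked. The share of the 5904 probe sets with this order was not taken.

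Other genes beside the 3 on their chromosomes had other levels where a probe set was matched. AT5G24570, beyond BGLU32, stayed near the floor with means of 2.41 in GR::bZIP1 cells with CHX, 2.33 without CHX and 2.31 in empty-vector cells, and AT5G24580 was at 2.30, 2.32 and 2.29 in these cells. BGLU29, near BGLU15, had means of 2.30 in GR::bZIP1 cells with CHX, 2.30 without CHX and 2.29 in empty-vector cells, close to the floor. BGLU28, the immediate neighbour of BGLU15, had means of 4.68 ± 1.15 in GR::bZIP1 cells with CHX (SD, n = 24), 3.27 without CHX and 3.87 in empty-vector cells. On the other side of BGLU15, AT2G44430 had 6.01 in GR::bZIP1 cells with CHX, 6.98 without CHX and 4.99 in empty-vector cells, the opposite order of BGLU15.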

How the data were processed

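The deposited values are log2 levels of 22810 probe sets on 47 Affymetrix ATH1 arrays, and per the submitters' processing notes the authors used GCRMA, with no version given. The scale and the separate floors were read from the values. From these values 64 control probe sets were left out. In R 4.3.3, limma 3.58.1 fitted each kind of cell as a design of N by DEX (moderated two-sided tests), with Biorep as a covariate in GR::bZIP1 cells with CHX. Differences between kinds of cells came from 1 fit of all 47 arrays. P-values were adjusted with the Benjamini-Hochberg method over 22746 probe sets, and the threshold was an adjusted p of 0.05. The scripts were tested on simulated data with independent noise and no floor, Biorep shift or correlated arrays. That test therefore does not cover values at the floor or replicates that share a preparation.

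Precision is limited by the number of arrays and by how far a level stands above the floor. Replicates were compared: the highest correlation of 2 arrays was 0.9971, and no 2 arrays were identical. After removal of group means 108 of 108 pairs of the same Biorep correlated above 0.1, while treatment replicate numbers did so in 16 of 36, 14 of 18 and 8 of 15 pairs and were not used as a block.

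The 3 genes and the gene lists were chosen with earlier results of these data known. Named genes are the 3 genes, family genes past the threshold (at most 4 per effect), the 3 family genes with the highest mean over all arrays (BGLU46, PYK10 and BGLU25, a rank that pools kinds of cells not on 1 scale), up to 3 genes per effect of other lists past the threshold, and for each of the 3 genes the 5 most similar. NAI1, DFR, the values of PYK10, BGLU27 and BGLU45 set against the 3 genes, and the chromosomal neighbours were added beside these after their values were seen. Names came from a table that matches 13436 probe sets to 1 locus, with 503 listed for several genes and 8807 unnamed here. No gene or protein sequence was used here. Alternatives tried were quantile normalization, a filter on probe sets less than 1 above the floor, 1 fit of all arrays, a variance trend, a replicate block, leaving out replicates, each Biorep alone, no Biorep covariate, averaged treatment replicates and Spearman's correlation.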

Additional observations from a re-analysis of the deposited data

Results flagged for a closer look

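The DEX effect on BGLU15 differed between GR::bZIP1 cells with CHX and without CHX by -0.86 (limma, adjusted p = 0.00105, n = 24 and 12 arrays), with -0.49 with CHX and 0.37 without. It was lower with DEX in 4 of 4 combinations of N and Biorep with CHX. The labels name preparations for the cells with CHX alone, so CHX and preparation cannot be told apart. In 12 groups of 6 arrays (4 for each gene) Dixon's criterion at 95% marked no single array, but each group mixes 2 preparations. These differed for BGLU31 and BGLU15, which widens the range, so an array far from the others of its own preparation could go unmarked.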

How the results depend on the processing

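Of 311 alternative values for the 3 genes, 292 kept the direction and the side of the threshold of the reported value or moved by less than the spread, or belonged to results that were not called and stayed so, 15 of these with another sign. The call of a DEX effect in GR::bZIP1 cells with CHX was lost for BGLU31 with Biorep 2 alone (-0.42), with no Biorep covariate (-0.77) and with treatment replicates averaged (-0.77). It was lost for BGLU15 with Biorep 1 alone (-0.34), Biorep 2 alone (-0.65), no Biorep covariate (-0.49) and averaged treatment replicates (-0.49). Leaving out replicates gave -0.86 to -0.71 for BGLU31, and the call was lost without replicate 2 (limma, adjusted p = 0.0543). For BGLU15 it gave -0.56 to -0.38, and the call was lost without replicate 3 (limma, adjusted p = 0.389). BGLU32 was called with all 47 arrays in 1 fit (-0.42, limma, adjusted p = 0.0222) and with the filter on low values (-0.42, adjusted p = 0.0348, where fewer probe sets were tested). The difference in DEX effect of BGLU15 with and without CHX was not called without the Biorep covariate (-0.86) or without replicate 3 (limma, adjusted p = 0.164). It ranged over -0.98 to -0.74 when replicates were left out. The N effect of BGLU32 in GR::bZIP1 cells with CHX turned in Biorep 1 alone (0.012). The level of BGLU15 in GR::bZIP1 cells with CHX minus empty-vector cells moved to -1.50 (Biorep 1) and -0.34 (Biorep 2), alternatives added after seeing the data. By Spearman's correlation 1 of the 5 most similar genes was shared for BGLU31, 2 for BGLU32 and 3 for BGLU15. With the replicate block the DEX effect remained called for BGLU31 (-0.77, limma, adjusted p = 0.00394) and BGLU15 (-0.49, adjusted p = 0.018), and the block changed no other call of the 3 genes. Some alternatives use fewer arrays or probe sets, and the cause of a changed call was not tested for any of them.

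The number of probe sets called for DEX in GR::bZIP1 cells with CHX was 1401, and 174 to 1759 over the alternatives. Without CHX it was 975 (199 to 1576), and in empty-vector cells 238 (8 to 784). For N, GR::bZIP1 cells had 459 with CHX (6 to 813) and 20 in the absence of CHX (5 to 162), and empty-vector cells had 37 (6 to 689). For the interaction, GR::bZIP1 cells had 0 with CHX (0 to 1) and 0 in its absence (0 to 25), and empty-vector cells had 8 (0 to 584). The difference in DEX effect was called for 1014 (509 to 1201) with CHX minus without CHX and for 1031 (555 to 1180) against empty-vector cells, and that in N effect for 78 (39 to 123) against cells without CHX and for 17 (1 to 177) against empty-vector cells.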
